A study of Mus musculus with 2 samples.

Results

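Axon guidance genes of the semaphorin, ephrin, slit and netrin families were examined in cerebrum RNA of a wild-type mouse and of the laggard (lag) mutant. The genes were chosen by symbol alone: every semaphorin of classes 3 to 7, plexin, neuropilin, Eph receptor, ephrin, slit, Robo, netrin, Unc5 and Dcc gene with at least 1 probe set that the platform annotation pairs with that gene alone. This gave 68 of the 18194 genes so paired, with 151 probe sets, of which 125 lay above background on at least 1 array. A probe set is the group of short oligonucleotides by which the Affymetrix Mouse Genome 430 2.0 array reads a transcript, and its MAS5 signal is a linear intensity in arbitrary units. RNA came from cerebrum at postnatal day 14 (P14), with 1 array for the wild-type and 1 for the mutant, and the number of mice behind each is not known here. The mutant carries the recessive lag allele, a spontaneous splice acceptor mutation of Kif14, a kinesin of cell division. It arose in crosses of 129/SVJ-derived chimeras with BDF1 females and was backcrossed to C57BL/6J, and the control was wild-type, a littermate according to the submitters' design text. With 1 array per genotype there is no replicate error for any comparison, no test was possible and no p-value is given. Every ratio below therefore describes these 2 arrays, and in whole cerebrum fewer cells of a type cannot be told apart from less RNA per cell.

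Guidance cues steer growing axons and migrating cells by attraction or repulsion, and many stay expressed after birth in neurons, glia and vessels. Semaphorins act through plexins, and most secreted class 3 semaphorins need a neuropilin as co-receptor. Ephrins are bound to the cell surface and signal through Eph receptor tyrosine kinases, with signals passing into both cells. Slits repel through Robo receptors, and netrin-1 attracts through Dcc and repels through Unc5 receptors. In the oligodendrocyte lineage, which makes myelin, several of these molecules are known, among them Sema4d, Sema5a, Sema6a, plexin-B3 and ephrin-B3.

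The arrays were alike in scale, with median signals of 105 for wild-type and 98.3 for mutant RNA. The background level was the 95th percentile of 130 probe sets of chemosensory receptor and keratin-associated protein families. These families were taken to be silent in brain, which was not checked. The level was 48.5 for the wild-type array and 49.1 for the mutant array. Signals under it were raised to it, so that a ratio is then a lower bound on the fold. Kif14 lay under this level on both arrays, at 6.85 and 0.733, and does not check the labels. Neuron markers were present on both arrays, with all 10 above background and summed signals of 90759 (wild-type) and 88841 (mutant). Markers of myelinating oligodendrocytes summed to 36459 and 2803, and all 13 measured were at least 2-fold lower in the mutant. Of 10 markers of oligodendrocyte precursors all were lower, 3 of them at least 2-fold, with sums of 24821 and 14791. Of 10 markers of midbrain and hindbrain on the array, 8 were measured and 7 were lower, 5 of them at least 2-fold. The other, Hoxa5, went from 71.0 to 172, 2.43-fold higher. En1 and Hoxb3 lay under background on both arrays, and the sums were 1544 and 770. Higher in the mutant were 8 of 9 measured microglia markers, with a median log2 ratio of 0.43 and sums of 8499 and 10192 (Itgam lay under background). Of 10 markers of meningeal fibroblasts and pericytes 9 were higher, with a median of 0.28 and sums of 17411 and 22027, and Lum alone was past 2-fold, from 259 to 526. Cerebellum markers were lower for 7 of 9, of which 2, Pcp2 and Gabra6, were at least 2-fold lower, with sums of 12017 and 13342. Astrocyte markers were lower for 6 of 10 and higher for 4, none of them 2-fold, with sums of 47690 and 43297. Endothelial and cortical layer markers are given beside the genes concerned. Of all 13911 measured genes, 6676 were lower and 7235 higher. The part of these marker differences in the results below was not tested, also where marker values are given beside a gene.

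Most guidance genes differed little between the arrays. Of the 68 genes, 62 were above background on both arrays, 3 on 1 array and 3, Epha1, Ephb4 and Ntn3, on neither. Of the 65 measured, 48 (73.8%) differed by less than 1.3-fold, against 81.6% of all 13911 measured genes. Plxnb3 was the only one of the 65 at least 2-fold lower in the mutant, where 1.02% of all measured genes were, and none was at least 2-fold higher, where 0.762% were. At least 1.5-fold lower were 2, Plxnb3 and Robo2 (against 3.54% of all measured genes), and 1 was as much higher, Robo1 (4.32%). Counts of this size are near the background share, and so are not a result about the families as a whole. Lower signals were found for 40 of the 65 genes (61.5%) and for 48.0% of all measured genes, with median log2 ratios of mutant over wild-type of -0.077 and 0.012. Under quantile normalization 38 of the 65 were lower, and with the arrays scaled to equal medians 39, against 44.6% and 44.5% of all measured genes. The SD of the log2 ratio was 0.39 over the 65 genes and 0.30 without Plxnb3, against 0.36 over all measured genes. The last SD keeps its own extremes, down to -5.50, so it is not like the SD without Plxnb3. Without Plxnb3, 48 of 64 guidance genes (75%) differed by less than 1.3-fold, still a smaller share than the 81.6% of all measured genes.

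**Figure D1:**
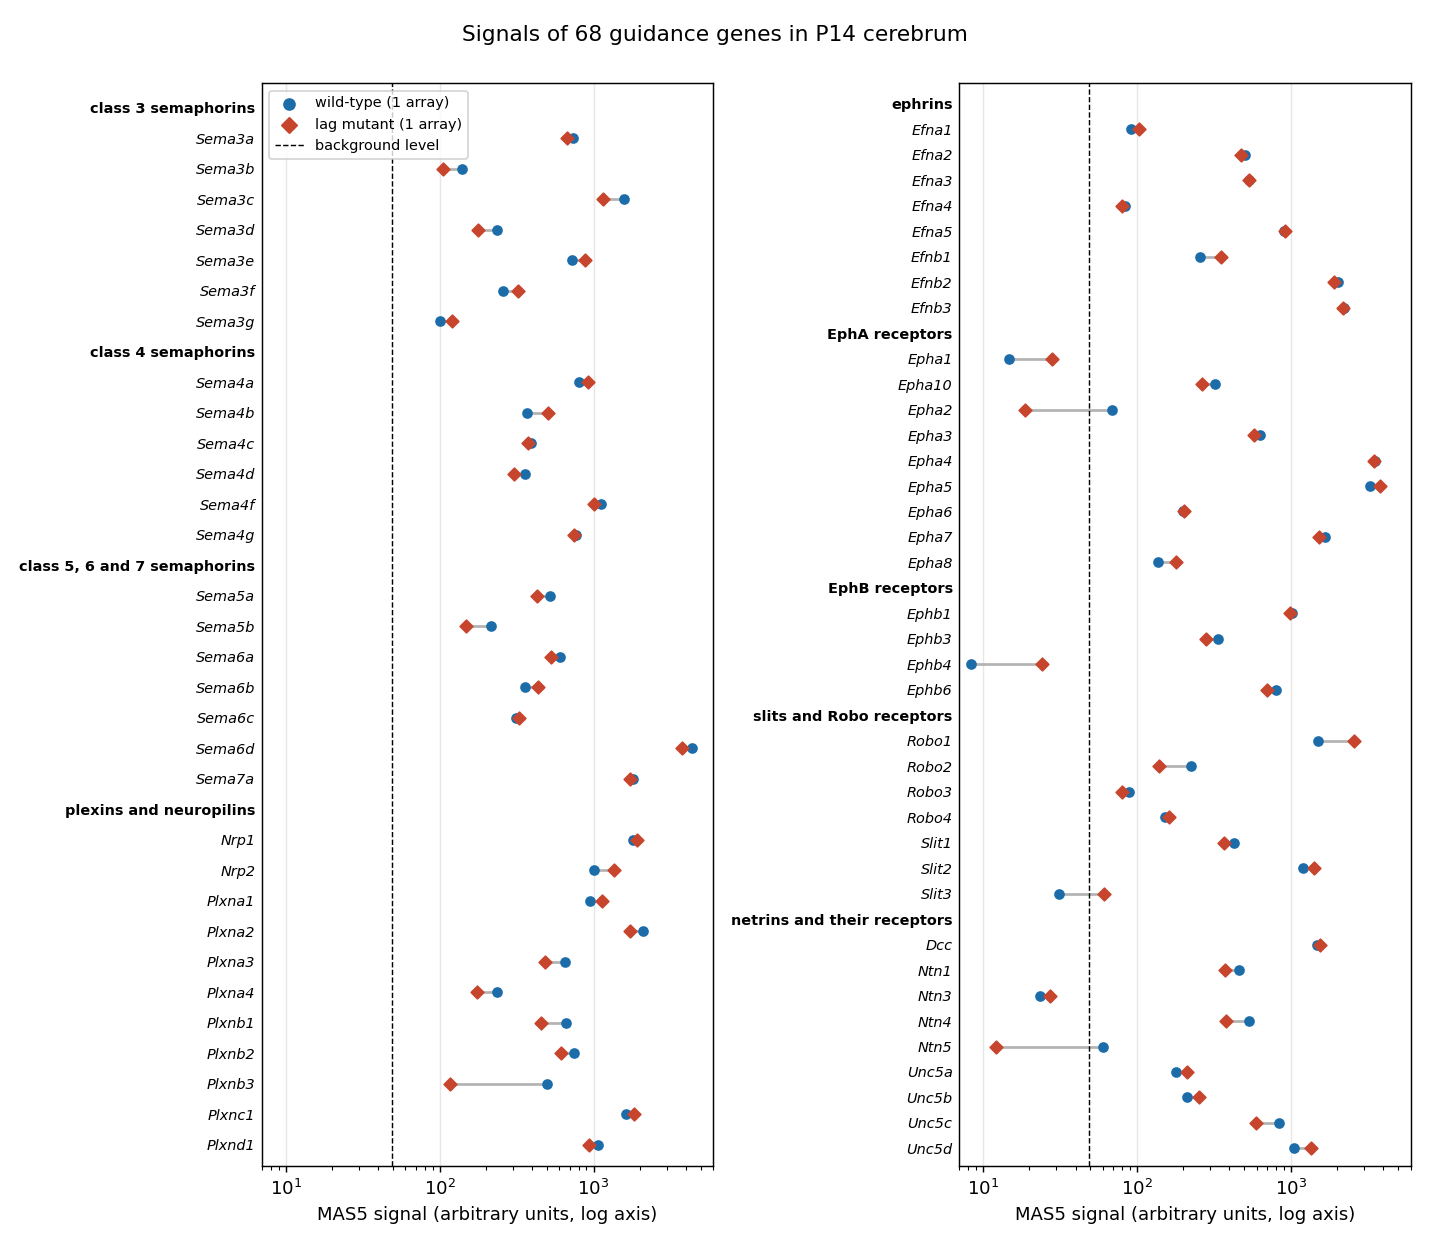
MAS5 signal (log axis, arbitrary units) of the 68 guidance genes on the wild-type array (circles) and the lag mutant array (diamonds), each gene by its probe set of highest mean signal, with the background level dashed. Plxnb3, from 499.7 to 116, has the widest gap among genes above background on both arrays, while Epha1, Ephb4 and Ntn3 lie left of the dashed line on both.

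How far a ratio can be read depends on signal. Of all measured genes in the dimmest tertile by mean signal, 16.3% differed at least 1.5-fold in either direction, in the middle tertile 5.09% and in the brightest 2.18%. The SD of the log2 ratio over all genes was 0.45, 0.32 and 0.27 in these tertiles. Of the guidance genes, 17 lay in the dimmest tertile, 28 in the middle and 20 in the brightest, with 1 past 1.5-fold in each: Robo2, Plxnb3 and Robo1. Probe sets of 1 gene give a second view of how far a ratio depends on the probes. Since they share the RNA and the array, their spread holds no error between mice or between repeated arrays. Of the guidance genes, 36 had 2 or more probe sets above background. The range of their log2 ratios within a gene had a median of 0.38, and for 19 of them the probe sets lay on both sides of 0. For 1 of these, Epha3, that comes only from a probe set that went from 48.8 to 47.7, the latter raised to 49.1. Over all 6593 genes with 2 or more such probe sets the median range was 0.34, and 55.4% had probe sets on both sides of 0. For the other 18 guidance genes with probe sets on both sides of 0 the direction depends on the probe set, and 29 more guidance genes were measured by 1 probe set only.

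**Figure D2:**
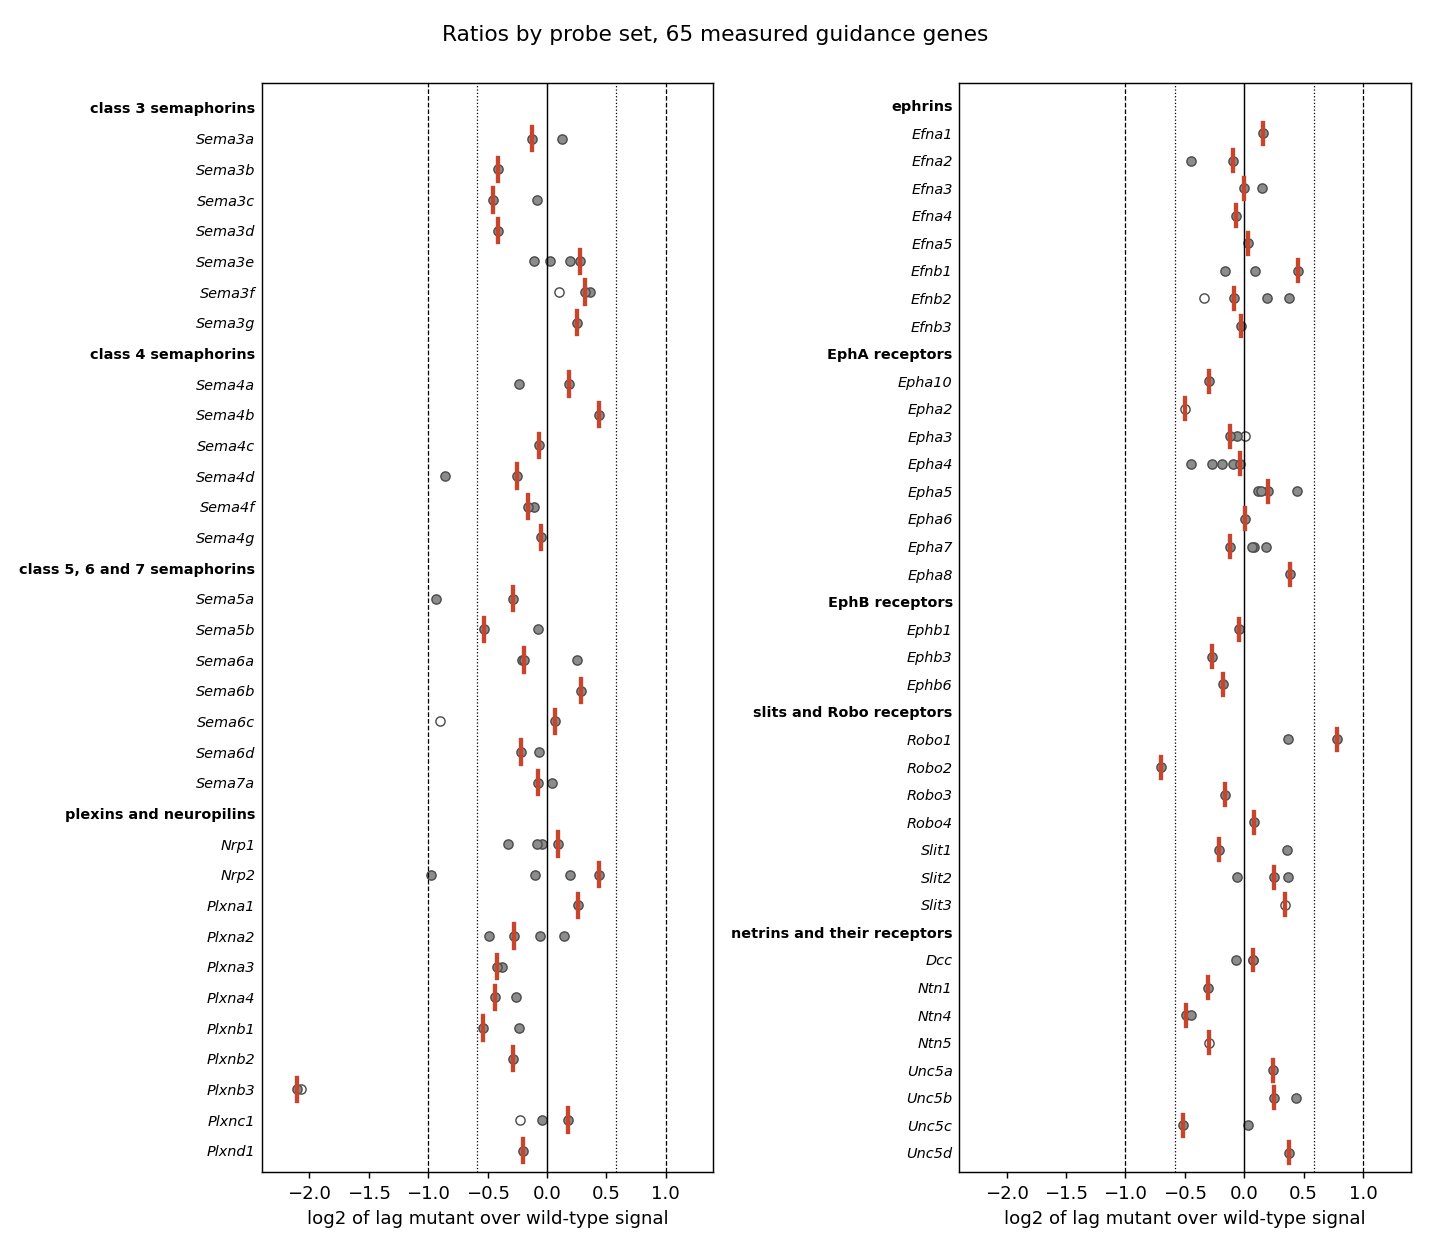
Log2 of lag mutant over wild-type signal, by probe set, for the 65 measured guidance genes. Each circle is a probe set above background on both arrays (filled) or on 1 (open, a bound), the red mark is the probe set of highest mean signal, dashed lines are 2-fold and dotted lines 1.5-fold. The filled circle of Plxnb3 lies at -2.10 and its open one, a bound, at -2.07, and the circles of Nrp2 spread from -0.98 to 0.44.

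Plxnb3, which encodes plexin-B3, a semaphorin receptor known from oligodendrocytes, went from 499.7 on the wild-type array to 116 on the mutant array, 4.29-fold lower. The probes of this probe set may also match other transcripts. The other probe set of Plxnb3, without that mark, went from 206 to 12.6, under background, which is at least 4.19-fold lower. Both of its probe sets were therefore at least 4.19-fold lower, and the second gives no upper limit. Among the 13911 measured genes its ratio ranked 28th from the lowest. With a log2 ratio of -2.10, Plxnb3 lay inside the range of the myelinating oligodendrocyte markers, -5.50 to -1.09 with a median of -2.67. The mutant signals of Mobp, the lowest in ratio, and of Mog and Myrf were under background, so their ratios are bounds. Mog, at -2.58, lay just above the median, so the median is a bound too. Plxnb3 also lay inside the range of the precursor markers, -4.20 to -0.25, but far below their median of -0.82. Of these precursor markers only Gpr17, at -4.20, and Sox8, at -2.13, were lower than Plxnb3, and the next was Cspg4 at -1.03. Of the markers of myelinating cells, Sox10, a transcription factor of the oligodendrocyte lineage, went from 637 to 88.2, and Myrf, a transcription factor of myelination, from 321 to 30.5, the latter under background. Whether the lower Plxnb3 signal reflects fewer oligodendrocytes or less transcript in each was not measured in P14 cerebrum. In optic nerve at P14 the paper counted similar numbers of oligodendrocytes in mutant and wild-type mice. In embryonic neocortex it detected no significant difference in Olig2-positive or PDGFRα-positive cells.

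The sequence before the annotated start of Plxnb3 is shown because Plxnb3 is the only guidance gene past 2-fold on these arrays, and because SOX proteins, the family of Sox10, bind sequences with the core ACAAAG or AACAAT. These motifs were chosen after the ratios were known. The 250 bases before the start are from RefSeq on build GRCm38.p6, at chrX:73756853-73757102 on the + strand, printed 5′ to 3′ with matches to either motif on either strand in capitals.
Plxnb3 promoter: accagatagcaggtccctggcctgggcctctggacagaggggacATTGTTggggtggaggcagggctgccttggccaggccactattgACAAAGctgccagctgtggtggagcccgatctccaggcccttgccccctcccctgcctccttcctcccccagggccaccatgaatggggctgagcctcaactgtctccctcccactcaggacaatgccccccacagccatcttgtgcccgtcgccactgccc
The first match, ATTGTT, is AACAAT read on the opposite strand and begins 206 bases before the start, and the second, ACAAAG, begins 162 bases before it, without overlap. Of 32851 promoters in the table, 16.5% held ACAAAG on either strand within the same 250 bases, 9.42% held AACAAT and 1.85% held both. The 58 guidance genes with a promoter in the table had 74 promoters. Counted by gene, and so not on the scale of these percentages, 7 held ACAAAG, 3 held AACAAT and 1, Plxnb3, both in a single promoter. A match describes these letters only, since binding was not measured in this study.

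The other plexins and the neuropilins had smaller differences. Of 11 measured, 7 had lower and 4 higher signals in the mutant, with a median log2 ratio of -0.28. In the same setting 61.5% of measured guidance genes and 48.0% of all measured genes were lower. By the mean over probe sets 10 were lower and 1 higher, with a median of -0.20. By that measure 63.1% of measured guidance genes and 47.7% of all genes were lower. The count for plexins and neuropilins thus depended on how a gene's value was taken. Plxnb1, the receptor of Sema4d, went from 658 to 453, 1.45-fold lower, and its other probe set from 426 to 361. Plxna3 went from 649 to 486 and Plxna4 from 236 to 174, with every probe set of both genes lower. Plxnb2 went from 750.1 to 615 and Plxnd1, a receptor of Sema3e, from 1075 to 934. All 5 of these differences were under 1.5-fold. Plxna2, a receptor of class 6 semaphorins, went from 2090 to 1724 by its brightest probe set, while another of its 4 went from 1448 to 1601. Nrp1, the co-receptor of Sema3a, had signals of 1794 and 1909 by its brightest probe set, while its other 3 were lower, with log2 ratios of -0.041, -0.081 and -0.33. Plxnc1 was 1.13-fold higher by its brightest probe set, and the other 2 measured were lower, from 494 to 480.0 and from 57.5 to 42.2, the last under background. Plxna1, with 1 measured probe set, was 1.20-fold higher.

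Nrp2, a co-receptor of Sema3c and Sema3f, had the widest spread between probe sets among the 34 guidance genes with 2 or more above background on both arrays. Its brightest probe set went from 1007 to 1368, 1.36-fold higher. The others went from 662 to 758, from 419 to 392 and from 131 to 66.4. The last is 1.97-fold lower, and the mean over the 4 probe sets was a log2 ratio of -0.11, so these arrays give no settled direction for Nrp2. It was the only 1 of the 34 (2.94%) whose probe sets differed by over 1 on the log2 scale, against 6.19% of all such genes. With probe sets under background on 1 array included at their deposited signals, 5 of 36 (13.9%) did, against 13.2% of all such genes. These were Efnb2, Nrp2, Plxnb3, Sema3f and Sema6c, with Plxnb3 the widest.

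Semaphorins known from oligodendrocytes had lower signals, by an amount that depended on the probe set. Sema4d, a transmembrane semaphorin found on oligodendrocytes, went from 360 to 303 by its brightest probe set, 1.19-fold lower, and from 349 to 192 by another, 1.81-fold lower. Sema5a, a ligand of plexin-B3, went from 519 to 427 by the probe set of highest mean signal, 1.22-fold lower, and from 598 to 313 by another of similar signal, 1.91-fold lower. By the mean over probe sets Sema4d was 1.47-fold and Sema5a 1.52-fold lower, so the latter passes 1.5-fold only by that measure. Sema6a, a further transmembrane semaphorin, went from 603 to 526 by its brightest probe set, and of 2 dim ones 1 was lower and 1 higher. Efnb3, which encodes ephrin-B3, had signals of 2224 and 2179. By their brightest probe sets all 5 guidance genes listed as known from oligodendrocytes were lower, as were 61.5% of measured guidance genes and 48.0% of all measured genes. Among the 5, 1 was past 2-fold and the median log2 ratio was -0.25. The other 4 lay within 1.3-fold, with Efnb3 at -0.029. This list was chosen with earlier results of these data known, so the shared direction is not a result about the lineage. The precursor markers had a median of -0.82.

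**Figure D3:**
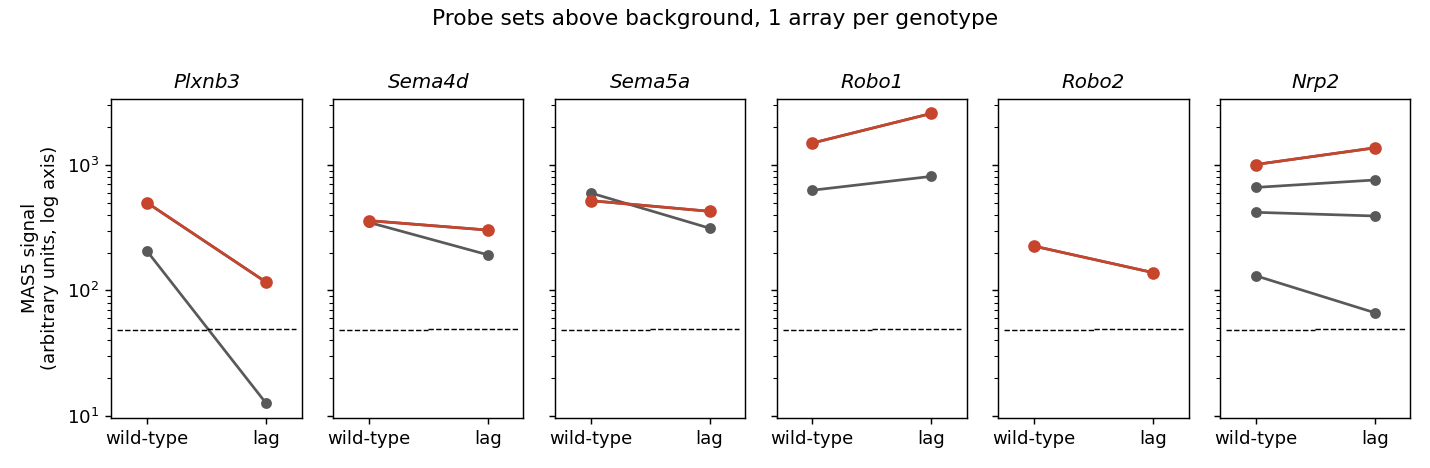
MAS5 signal (log axis, arbitrary units) on the wild-type and lag mutant arrays for every probe set above background of 6 guidance genes; the red line is the probe set of highest mean signal and the dashed line the background level. The lines of Plxnb3, Sema4d and Sema5a all slope down and those of Robo1 up, and those of Nrp2 slope both ways.

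Secreted class 3 semaphorins held both lower and higher members. Sema3c went from 1578 to 1154, 1.37-fold lower, Sema3b from 139 to 105 and Sema3d from 237 to 178. Sema3a, which repels cortical axons, went from 734 to 673, with another probe set from 144 to 157. Sema3e, a ligand of plexin-D1, went from 730.0 to 885, but of its 4 probe sets 1 was lower, from 680 to 631. Sema3f went from 260 to 323 and Sema3g, known from arterial endothelium, from 101 to 120. The 7 genes had a median log2 ratio of -0.13, which was -0.00084 by the mean over probe sets, and none was past 1.5-fold.

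Membrane-bound semaphorins also stayed within 1.5-fold by the probe set of highest mean signal. Sema5b was lowest in ratio among them, from 215 to 149, 1.44-fold lower, with another probe set from 179 to 170. Sema6d, a ligand of plexin-A1, went from 4352 to 3735, and Sema7a, a lipid-anchored semaphorin that binds plexin-C1, from 1814 to 1720. Sema4f went from 1119 to 1003 and Sema4b from 372 to 504, 1.36-fold higher. Sema4a went from 803 to 915 by a probe set whose probes may also match other transcripts, and from 489 to 415 by one without that mark. Sema6c had 313 and 328 by its brightest probe set, whereas a dim one went from 92 to 44.4, under background and at least 1.87-fold lower. The rest, Sema4c, Sema4g and Sema6b, differed by 1.05-fold, 1.04-fold and 1.22-fold. Median log2 ratios were -0.059 for the 6 class 4 genes and -0.20 for the 7 of classes 5 to 7.

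Robo1 and Robo2, the main slit receptors of forebrain neurons, differed in opposite directions. Robo1 went from 1493 in the wild-type to 2570.2 in the mutant, 1.72-fold higher, and its other probe set above background from 629 to 810.0, 1.29-fold higher. Robo2 went from 225 to 139, 1.63-fold lower, by its single probe set. The Robo1 ratio ranked 267th from the highest and that of Robo2 327th from the lowest of 13911 genes. By the mean over probe sets Robo1 was 1.49-fold higher, just under 1.5-fold. Markers of deep cortical layers were higher for 8 of 9, with a median log2 ratio of 0.17 and summed signals of 15837 and 18658. Tbr1 was the highest of them in ratio, with 992 and 1639. Their range was -0.19, a bound from Syt6, to 0.72. Robo1, at 0.78 by its brightest probe set, was above that range. By its other probe set, at 0.37, and by the mean of both, at 0.57, Robo1 lay inside that range. Upper-layer markers were higher for 6 of 9, with a median of 0.047 and sums of 13909 and 14203. Of all 13911 measured genes, 7235 were higher. These marker signals are not cell counts. By immunostaining, the paper counted fewer cells positive for the upper-layer marker Cux1 in mutant cortex. It counted slightly fewer cells positive for the deep-layer marker Foxp2. The part of either set of layers in the Robo1 ratio was not tested.

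The slits gave no common direction. Slit2 went from 1196 to 1426, and of its 3 probe sets 1 dim one was lower, from 134 to 129. Slit1 went from 426 to 368 by its brightest probe set and from 156 to 200.4 by the other. Slit3 lay under background in the wild-type, at 31.3, and at 61.6 in the mutant, at least 1.27-fold higher. Robo3 went from 88.9 to 79.7 and Robo4, a receptor of endothelial cells, from 152 to 161. The median log2 ratio of the 7 genes was 0.081.

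**Figure D4:**
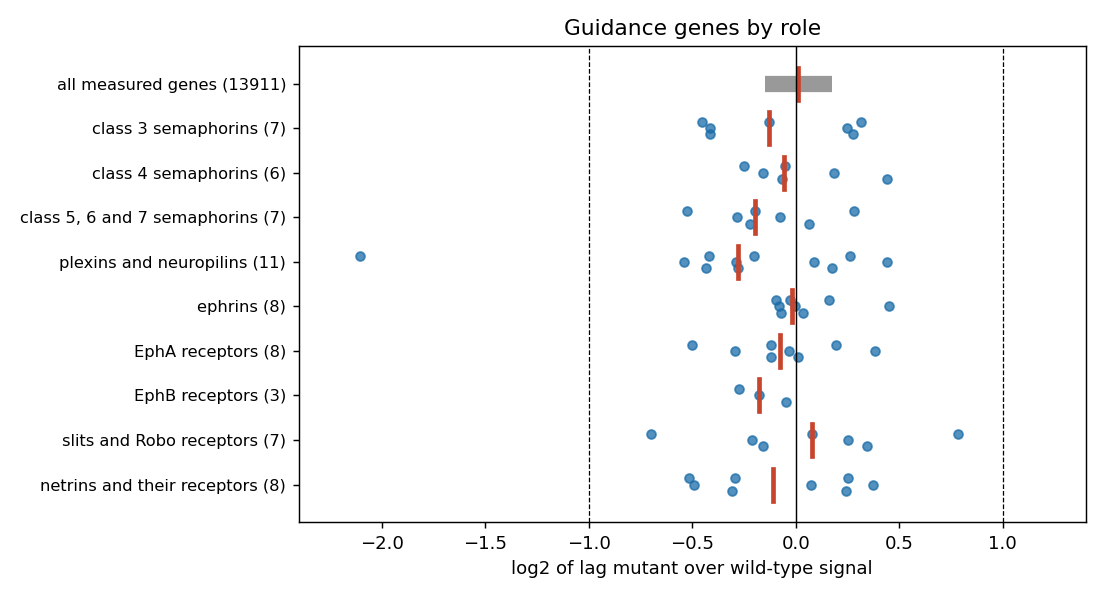
Log2 of lag mutant over wild-type signal, by role. Each point is a gene by its probe set of highest mean signal, the red mark is the median of a group, the grey bar is the interquartile range of all 13911 measured genes, dashed lines are 2-fold and group sizes are in parentheses. Group medians run from -0.28 for plexins and neuropilins to 0.081 for slits and Robo receptors, and 1 gene, Plxnb3, lies beyond 2-fold.

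Netrin-1 and its receptors were measured at moderate signal. Ntn1 went from 462 to 373, 1.24-fold lower, and Dcc, its attractive receptor, had 1484 and 1561, with 1 of 3 probe sets lower. Unc5c, a repulsive netrin receptor, went from 844 to 591, 1.43-fold lower, while a dimmer probe set had 149 and 152. Unc5d, a receptor of layer 4 cortical neurons, went from 1044 to 1352, and Unc5a from 179 to 211. Unc5b, known from endothelial tip cells, went from 213 to 254, and its other probe set from 105 to 142. Ntn4, a netrin of basement membranes, went from 538 to 382, 1.41-fold lower, with a second probe set from 78.7 to 57.8. Ntn5 went from 60.3 to 12.2, under background and at least 1.23-fold lower. The 8 measured genes had 4 lower and 4 higher signals and a median log2 ratio of -0.11. That median turned to 0.073 both with background at the 99th percentile and with no background level.

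Ephrins had the narrowest ratios after the EphB receptors, with an SD of 0.18 and a median log2 ratio of -0.015 over 8 genes. The median turned to 0.034 by the mean over probe sets, 0.024 under quantile normalization and 0.0037 with the arrays scaled to equal medians. Efnb2, an ephrin of arteries and of neurons, had 2017 and 1906, and its 4 probe sets lay on both sides of 0. Among the ephrin-A ligands, which are held in the membrane by a lipid anchor, Efna5 had 899 and 919, Efna3 533 and 532, Efna2 506 and 473, Efna1 91.9 and 103 and Efna4 83.7 and 79.8. Efnb1 was the exception in size, going from 258 to 352, 1.37-fold higher, by the brightest of its 3 probe sets. The other 2 went from 167 to 149.6 and from 143 to 152.

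The EphA receptors held both lower and higher members, and their log2 ratios had an SD of 0.27. Epha4, which binds ephrins of both classes, had 3547 and 3466 by its brightest probe set, and all 5 of its probe sets were lower, by 1.02-fold to 1.36-fold. Epha5, a neuronal receptor of ephrin-A ligands, had 3294 and 3777, and all 4 of its probe sets were higher, by 1.09-fold to 1.36-fold. Probe sets of 1 sign were found for 17 of the 36 guidance genes that had 2 or more. Epha7 had 1667 and 1536, with 3 of its 4 probe sets higher. Epha8 went from 137 to 179 and Epha10 from 324 to 264, while Epha3 had 631 and 581 and Epha6 200.0 and 201. Epha2 went from 69.4 to 18.7, under background and at least 1.41-fold lower. The EphB receptors Ephb1, at 1025 and 992, Ephb6, at 798 and 705, and Ephb3, at 339 and 281, were all lower by less than 1.3-fold. Median log2 ratios were -0.076 for 8 EphA and -0.18 for 3 EphB receptors.

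Ligands and receptors were also set side by side for 23 known pairs, chosen after the values were known and with genes in common. Both partners had lower signals in 9 pairs and higher in 3, and the signs were opposite in 11. In no pair were both genes past 1.5-fold. Sema5a and Plxnb3, with log2 ratios of -0.28 and -2.10, were the pair with the lowest receptor. Sema4d and Plxnb1 had -0.25 and -0.54, and Ntn1 and Unc5c -0.31 and -0.51. Slit2, at 0.25, was paired with both Robo1, at 0.78, and Robo2, at -0.70. Over all measured guidance genes, 22 of 34 ligands and 18 of 31 receptors were lower, with medians of -0.073 and -0.12.

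Guidance genes known from endothelium did not share a direction. Of 6 measured, Robo4, Unc5b, Sema3g and Efna1 were higher and Efnb2 and Plxnd1 lower, all within 1.3-fold, with a median log2 ratio of 0.12. Endothelial markers had 6 of 10 lower, a median of -0.24 and summed signals of 5460 and 4828.

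Partners of these pathways outside the families had medians near 0. Of 17 receptors and adhesion molecules, 9 were lower and 8 higher, and of 36 cytoplasmic signalling genes 18 and 18, with medians of -0.016 and 0.0040. Of the 53, 2 (3.77%) were at least 1.5-fold lower, against 3.54% of all measured genes, and none 1.5-fold higher, against 4.32%. The 2 are named only to account for the count. Rgmb, a repulsive guidance molecule that binds neogenin, went from 525 to 294, 1.79-fold lower. Chn2, a Rac-inactivating chimaerin, went from 1421 to 942, 1.51-fold lower. Neogenin itself, Neo1, had 3809 and 4073. The adhesion molecule gene Chl1 had 10656 and 10940, the receptor phosphatase gene Ptprs 6128 and 5723, Dpysl2, a collapsin response mediator of semaphorin signalling, 19829 and 17747, and the actin regulator Cfl1 13404 and 14480.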

How the data were processed

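Cerebrum RNA of 1 wild-type and 1 lag mutant sample at postnatal day 14 was hybridised to 1 array each. The deposited values are linear intensities that the authors made with MAS5.0 by its defaults, scaling each array globally to a target not given here. MAS5 is also named in the submitters' processing notes. The values came without detection calls. With 2% of probe sets trimmed at either end, both arrays had a mean of 500.0.

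Of 45101 probe sets, 34958 named a single gene, 932 named several and 9211 none. Symbols were updated through gene identifiers in RefSeq GRCm38.p6, where 34754 matched. A gene took its probe set of highest mean signal, also where the probes may match other transcripts, as for Plxnb3, Sema3f, Sema4a and Sema4f. Sema4e and Ephb2, of the same families, and Ptk2 and Pak1 among the partners were not analysed here. The 68 members and all lists were chosen with earlier results of these data known.

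Named are genes past 1.5-fold, the 2 of highest signal per role group and those with probe sets over 1 apart on the log2 scale; others were named to account for every member. Scripts were tested on simulated data with planted changes past 2-fold in genes well above background. That test does not cover smaller differences or dim genes. The 7 alternatives changed the normalization, the background level or how a gene's value was taken. Scipy 1.17.1, pandas 2.3.3 and numpy 2.4.6 were run in Python 3.11.15. Precision is limited by there being 2 arrays.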

Additional observations from a re-analysis of the deposited data

How the results depend on the processing

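No paired analysis was possible because there is 1 array of either genotype. With background taken at the 90th percentile, 4 guidance genes were at least 1.5-fold lower and 2 higher (3.88% and 5.53% of all genes); the added genes were Epha2, Ntn5 and Slit3, whose folds are bounds. With no background level 3 were at least 2-fold lower (Epha2, Ntn5 and Plxnb3) and 1 higher (Ephb4), against 5.39% and 6.77% of all genes, and 4 were at least 1.5-fold lower and 4 higher, against 9.28% and 12.2%, because signals near or under background then enter as deposited. By the mean over probe sets 0 genes were 1.5-fold higher (3.75% of all genes), since Robo1 came to 1.49-fold, and Sema5a joined those lower. The median of netrins and their receptors turned from -0.11 to 0.073 with background at the 99th percentile and with none. That of the ephrins turned from -0.015 to 0.034 by the mean over probe sets, 0.024 under quantile normalization and 0.0037 under median scaling. That of class 3 semaphorins went from -0.13 to -0.00084 by the mean over probe sets and -0.012 with unique probe sets only. The causes were not tested. The other 84 values of counts and medians stayed within 1.5 times the count, within 0.1 of a role group's median with its sign kept (a limit chosen after the values were seen), or, for the median over all members, inside its 95% binomial interval of -0.18 to 0.0092 over genes, which are not replicates. Plxnb3 kept a log2 ratio of -2.10 to -1.90, Robo2 of -0.70 to -0.63 and Robo1 of 0.57 to 0.80. The -1.90 is a bound, since the mutant signal of Plxnb3 was then raised to 134, the background at the 99th percentile. The signals used for Robo1 and Robo2 lay above every background level tried, so those settings could not change them. Robo2, with 1 probe set, could change only under quantile normalization and median scaling. The median over all measured members ranged from -0.096 to -0.056. Nrp2 moved to -0.11 by the mean over probe sets and Sema4a to -0.24 with unique probe sets only.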
